A study of Homo sapiens with 12 samples.

Results

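The ATP13A family of P5-type ATPases, ATP13A1 to ATP13A5, was followed through 12 RNA sequencing libraries of a breast cancer cell line. Its members were taken by symbol from the count table, and all 5 were found, among 57783 genes in all. All 5 also passed the filter on low counts, which left 16327 genes for testing. The cells were MDA-MB-468, an established human breast cancer line of the triple-negative kind, without hormone receptors or amplified HER2. EPZ5676 (pinometostat) inhibits DOT1L, the enzyme that methylates lysine 79 of histone H3 in the bodies of transcribed genes. Cultures had received EPZ5676 at 0.5 µM or the solvent DMSO for 10 days and were then sorted by ALDH1, an enzyme activity that serves as a marker of stem-like tumour cells. The 4 groups, with 3 biological replicates each per the labels, were EPZ5676 ALDH1+, DMSO ALDH1+, EPZ5676 ALDH1- and DMSO ALDH1-. All groups came from 1 cell line grown in the same medium.

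P-type ATPases are membrane pumps that form a phosphorylated intermediate while they move their cargo. The P5 branch is the least studied. ATP13A1 is the only human P5A member; it sits in the endoplasmic reticulum and pulls wrongly inserted membrane helices back out. The others are P5B members. ATP13A2, also called PARK9, exports polyamines out of lysosomes, and its loss causes a juvenile form of parkinsonism. ATP13A3 takes part in polyamine uptake through endosomes. ATP13A4 and ATP13A5 are less well characterised; their genes lie side by side on chromosome 3, and ATP13A3 lies on the same chromosome. The family was chosen by the log2 fold change of ATP13A5 under EPZ5676, which was among the lowest of all genes. The treatment values of ATP13A5 are therefore given as a description with no test, whereas the other 4 members were taken by family name and were tested.

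The identifiers were ENSG00000105726.12 for ATP13A1 on chromosome 19, ENSG00000159363.13 for ATP13A2 on chromosome 1, ENSG00000133657.10 for ATP13A3, ENSG00000127249.10 for ATP13A4 and ENSG00000187527.6 for ATP13A5, the last 3 on chromosome 3. Below stand the 250 bases upstream of the RefSeq start (assembly GRCh38.p14) of ATP13A5 and ATP13A4, the neighbours that were both lower under EPZ5676, and of ATP13A2, whose level did not pass the test. Each is read 5′ to 3′ on the minus strand, which carries all 3 genes, with every CG dinucleotide in capitals. The windows are chr3:193378754-193379003, chr3:193554896-193555145 and chr1:17011929-17012178.
ATP13A5: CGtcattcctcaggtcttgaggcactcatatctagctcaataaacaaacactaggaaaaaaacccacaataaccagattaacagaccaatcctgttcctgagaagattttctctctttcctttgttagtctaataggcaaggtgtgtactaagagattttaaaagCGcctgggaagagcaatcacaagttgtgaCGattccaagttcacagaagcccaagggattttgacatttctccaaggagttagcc
ATP13A4: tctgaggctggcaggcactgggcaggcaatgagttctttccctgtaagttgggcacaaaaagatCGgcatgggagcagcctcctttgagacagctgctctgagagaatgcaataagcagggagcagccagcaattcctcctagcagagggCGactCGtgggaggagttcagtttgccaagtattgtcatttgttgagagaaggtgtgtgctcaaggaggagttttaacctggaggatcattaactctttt
ATP13A2: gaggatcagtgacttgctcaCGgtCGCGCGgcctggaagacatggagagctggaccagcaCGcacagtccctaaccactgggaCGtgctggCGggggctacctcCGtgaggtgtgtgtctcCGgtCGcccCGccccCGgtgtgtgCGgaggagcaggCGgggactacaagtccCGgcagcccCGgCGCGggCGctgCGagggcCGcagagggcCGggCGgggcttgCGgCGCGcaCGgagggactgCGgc
The ATP13A5 and ATP13A4 windows held 3 CG dinucleotides each, and 29.3% of 35116 such windows in the RefSeq table held as few. Their GC contents were 41.2% and 50.4%. The ATP13A2 window held 28 CG dinucleotides at a GC content of 72.8%, and 15.9% of windows held as many. The ATP13A1 window, chr19:19663677-19663926, held 19 at 65.2% GC. The ATP13A3 window held 0 at 27.6% GC and is not printed, because this RefSeq start lies inside the longer GENCODE 29 gene. The window of PLAAT1, the neighbour of ATP13A5 on its other side and lower with EPZ5676 by less than the pair, held 41. These counts describe the letters only, and no methylation or binding was measured here.

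The members fell into an abundant trio and a scarce pair. Levels are given in CPM, the count of a gene scaled to a common library total with TMM factors, and for comparisons between genes in CPM per kilobase of coding length. Per kilobase, the order in every group was ATP13A3, ATP13A1, ATP13A2, ATP13A5 and ATP13A4, and plain CPM gave the same order. In EPZ5676 ALDH1+ cells the mean levels per kilobase were 56.5 for ATP13A3, 33.1 for ATP13A1, 27.8 for ATP13A2, 0.176 for ATP13A5 and 0.0917 for ATP13A4. In DMSO ALDH1+ cells they were 45.4, 35.7, 25.9, 3.52 and 0.61 for the same genes in that order. The ALDH1- groups kept this split, with ATP13A5 at 0.207 CPM per kilobase in EPZ5676 cells and 2.73 in DMSO cells. Neighbours in the order did not overlap between their libraries in any group, except ATP13A3 (39.3 to 50.1) and ATP13A1 (31.3 to 41.8) in DMSO ALDH1+ cells.

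**Figure D1:**
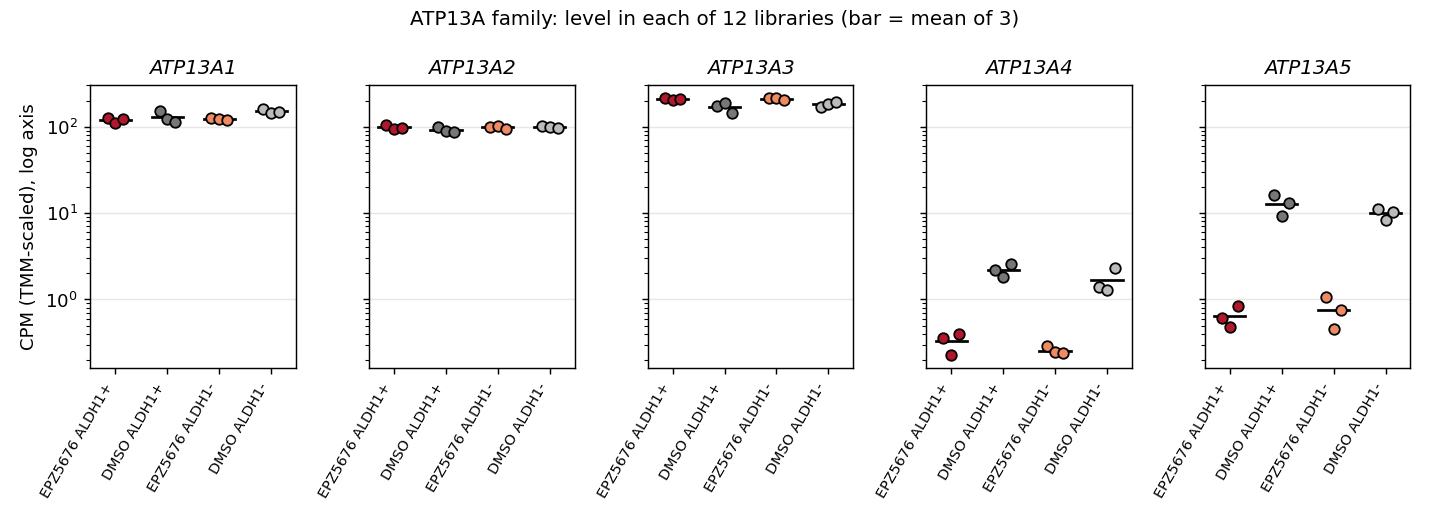
Level of each ATP13A gene in every library, in TMM-scaled CPM on a log axis; each point is 1 library and each bar the mean of 3. ATP13A5 and ATP13A4 sit lower in both EPZ5676 groups than in both DMSO groups, while the other 3 genes stay between 87 and 215 CPM.

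Under EPZ5676, ATP13A5 was scarce, at 13 to 38 counts per library. In ALDH1+ cells its level was 0.606, 0.476 and 0.843 CPM in EPZ5676 replicates 1 to 3, against 16.3, 9.12 and 13.2 CPM in DMSO replicates 1 to 3. Every EPZ5676 library was far below every DMSO library. The EPZ5676 values rest on 17, 38 and 25 counts and the DMSO values on 447, 229 and 748 counts. The mean was 0.642 ± 0.19 CPM with EPZ5676 and 12.9 ± 3.6 CPM with DMSO (SD, n = 3 each). The fitted log2 fold change was -4.42 (SE 0.27, 95% interval -5 to -3.83), a 21.4-fold lower level. This was the 3rd lowest of all 16327 log2 fold changes. In bulk libraries, fewer cells that express a gene and less of its RNA per cell cannot be told apart.

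In ALDH1- cells ATP13A5 stood at 1.06, 0.456 and 0.753 CPM with EPZ5676, against 11.2, 8.33 and 10.4 CPM with DMSO. The groups again did not overlap. The fitted log2 fold change was -3.74 (SE 0.29, 95% interval -4.35 to -3.12), 13.3-fold lower, and the 2nd lowest of all. Within replicate numbers the log2 ratios of EPZ5676 to DMSO were -4.75, -4.26 and -3.97 in ALDH1+ cells and -3.40, -4.19 and -3.79 in ALDH1- cells. The treatment effect in ALDH1+ cells minus that in ALDH1- cells was -0.68 (SE 0.43), given as a description like the values it is made from.

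ATP13A4, the gene next to ATP13A5, also fell in both populations. In ALDH1+ cells it stood at 0.357, 0.226 and 0.404 CPM with EPZ5676, against 2.18, 1.83 and 2.55 CPM with DMSO. ALDH1- cells had 0.286, 0.246 and 0.238 CPM with EPZ5676, against 1.39, 1.29 and 2.34 CPM with DMSO. The EPZ5676 and DMSO libraries did not overlap in either population. With EPZ5676 the values rest on 6 to 18 counts per library, and the level that 3 counts stand for was 0.0376 to 0.122 CPM.

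The log2 fold change of ATP13A4 was -2.87 in ALDH1+ cells (SE 0.29, edgeR quasi-likelihood test, adjusted p = 3.5e-06), 7.3-fold lower with EPZ5676. For ALDH1- cells the value was -2.69 (SE 0.34, edgeR quasi-likelihood test, adjusted p = 5e-05), 6.44-fold lower. These were the 12th and 9th lowest values of all genes tested. ATP13A4 passed the filter on low counts through its DMSO level, since it failed in the fit of the EPZ5676 groups only. Genes kept in this way tend to come out lower with EPZ5676, which limits what the call and the ranks show. Within replicate numbers the log2 ratios were -2.61, -3.02 and -2.66 in ALDH1+ cells and -2.29, -2.40 and -3.30 in ALDH1- cells. ATP13A5 had the more negative ratio in all 6 of these pairs, although the difference between the genes was not tested. Since ATP13A5 was chosen for its low values in these same comparisons, this tally is only a description. The treatment effects on ATP13A4 differed between populations by -0.18 (SE 0.5, 95% interval -1.25 to 0.88; edgeR, adjusted p = 0.98).

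ATP13A3, the endosomal polyamine transporter, moved the other way. In ALDH1+ cells it stood at 215, 201 and 209 CPM with EPZ5676, against 173, 185 and 145 CPM with DMSO. All EPZ5676 libraries lay above all DMSO libraries. The rise was 1.25-fold, with a log2 fold change of 0.32 (SE 0.08, edgeR, adjusted p = 0.0083). ALDH1- cells had 215, 212 and 202 CPM with EPZ5676, against 169, 184 and 190 CPM with DMSO. There the log2 fold change was 0.21 (SE 0.08, 95% interval 0.04 to 0.39), which missed the threshold (edgeR, adjusted p = 0.075) and passed it once replicate number was added to the fit as a block (adjusted p = 0.041).

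ATP13A1, the helix dislocase of the endoplasmic reticulum, was slightly lower with EPZ5676 in ALDH1- cells. It stood there at 127, 121 and 119 CPM with EPZ5676, against 158, 144 and 147 CPM with DMSO, without overlap. The log2 fold change was -0.29 (SE 0.09, edgeR, adjusted p = 0.034). This call was lost without any 1 of the 6 ALDH1- libraries, with adjusted p-values of 0.061 to 0.11. In ALDH1+ cells ATP13A1 stood at 126, 111 and 122 CPM with EPZ5676, against 151, 123 and 113 CPM with DMSO, and the groups overlapped. The log2 fold change of -0.11 (SE 0.09, edgeR, adjusted p = 0.4) became 0.02 without DMSO ALDH1+ replicate 1.

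ATP13A2, the lysosomal polyamine exporter, gave no call. In ALDH1+ cells it stood at 105, 94.4 and 96 CPM with EPZ5676, against 100, 88.3 and 87 CPM with DMSO. ALDH1- cells had 99.2, 101 and 92.6 CPM with EPZ5676, against 102, 99.7 and 95.6 CPM with DMSO. The libraries of both treatments overlapped in both populations. The log2 fold changes were 0.10 (95% interval -0.05 to 0.26; edgeR, adjusted p = 0.31) and -0.02 (95% interval -0.18 to 0.13; edgeR, adjusted p = 0.88).

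Leaving ATP13A5 aside, 2 of 4 members were called in each population at an adjusted p below 0.05. In ALDH1+ cells these were ATP13A4 and ATP13A3, where 31.5% of all genes tested were called. In ALDH1- cells these were ATP13A4 and ATP13A1, where 22.6% of all genes were called. The libraries of the treatments did not overlap for 2 of these 4 members in ALDH1+ cells, beside 41.4% of all genes, and for 3 of 4 in ALDH1- cells, beside 39.1%. With so few members, these counts say nothing about the family beyond its single genes. The sizes separate them: ATP13A5 and ATP13A4 had log2 fold changes of -2.69 or lower in both populations, and the other 3 members lay between -0.29 and 0.32. The medians over all genes were -0.01 in ALDH1+ cells and -0.02 in ALDH1- cells.

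**Figure D2:**
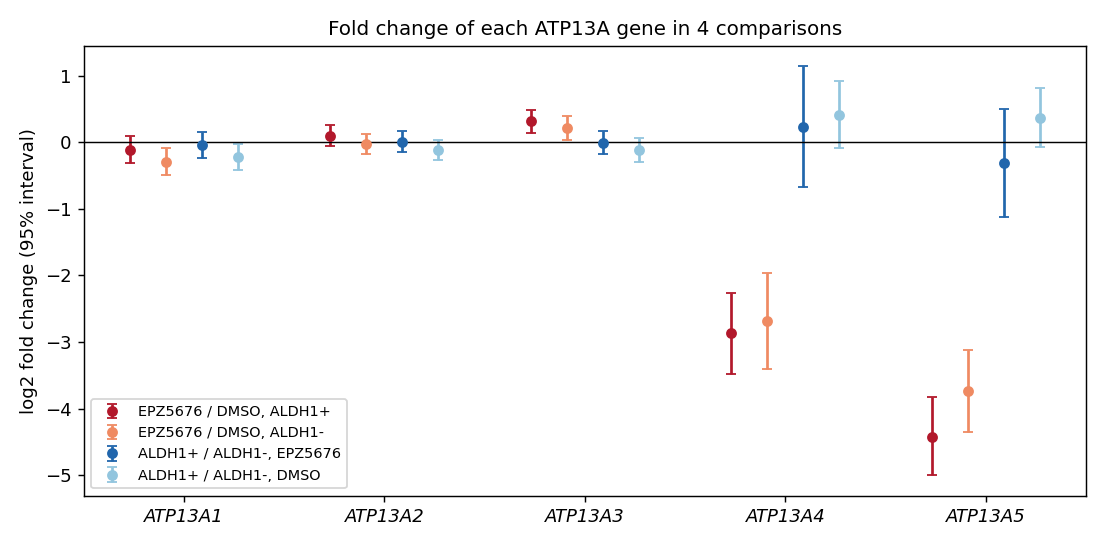
Fitted log2 fold change of each ATP13A gene in 4 comparisons, with 95% intervals. Both EPZ5676 comparisons put ATP13A5 (-4.42 and -3.74) and ATP13A4 (-2.87 and -2.69) far below 0, and the comparisons of ALDH1+ with ALDH1- cells lie between -0.31 and 0.41.

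The sort by ALDH1 gave no call for any member. Under EPZ5676, ATP13A5 averaged 0.642 ± 0.19 CPM in ALDH1+ cells and 0.757 ± 0.3 CPM in ALDH1- cells, a log2 fold change of -0.31 (95% interval -1.12 to 0.5; edgeR, adjusted p = 0.93). Under DMSO it averaged 12.9 ± 3.6 CPM in ALDH1+ cells and 9.98 ± 1.5 CPM in ALDH1- cells, a log2 fold change of 0.37 (95% interval -0.07 to 0.81; edgeR, adjusted p = 0.36). ATP13A5 was chosen by values from these same libraries, so its tests between populations are not independent of that choice. For ATP13A4 the log2 fold changes were 0.23 under EPZ5676 (95% interval -0.67 to 1.14; edgeR, adjusted p = 0.96) and 0.41 under DMSO (95% interval -0.09 to 0.92; edgeR, adjusted p = 0.37).

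For the abundant members the intervals were narrower. ATP13A1 gave -0.22 under DMSO (95% interval -0.41 to -0.02), an interval that left out 0, but its edgeR adjusted p was 0.24. ATP13A2 and ATP13A3 both gave -0.11 under DMSO, with edgeR adjusted p-values of 0.44 and 0.49. Under EPZ5676 these 3 genes lay between -0.04 and 0.01. The libraries of the ALDH1+ and ALDH1- cells overlapped for all 5 members under both treatments, whereas 9.57% of all genes under EPZ5676 and 23.1% under DMSO did not overlap. Over all genes the number of calls depended on the fit, and no member was called under the block either. With edgeR, 0.0184% of genes (3 genes) were called under EPZ5676, with 1032 at an unadjusted p below 0.05; DESeq2 called 13 higher and 12 lower, and the replicate block 31 and 44. With edgeR, 0 genes (0%) were called under DMSO, with 2904 at an unadjusted p below 0.05; DESeq2 called 137 higher and 146 lower, and the replicate block 564 and 820. No gene was called for the interaction, with 597 at an unadjusted p below 0.05 and 0 by DESeq2 or with the block.

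Reads of the pair could in principle be shared with overlapping genes. In the GENCODE 29 annotation ATP13A5 and ATP13A4 share 0 exon bases. ATP13A5-AS1, an antisense RNA, overlaps ATP13A5 exons over 193 bases, and ATP13A4-AS1 overlaps ATP13A4 exons over 349 bases. ATP13A5-AS1 had 1 to 6 counts per library. ATP13A4-AS1 had 1 count in DMSO ALDH1- replicate 2 and 0 in the other 11 libraries. ATP13A3-DT, a divergent transcript named for ATP13A3, had 1 to 7 counts. None of these passed the filter. The kit keeps strand, but whether the counting used it is not given in the sources used here, so antisense reads cannot be told apart from those of the gene.

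Tested neighbours on chromosome 3 moved in both directions and by less than the pair. The 8 protein-coding genes on each side of ATP13A5 in the RefSeq order include ATP13A4 and, as the last on its side, ATP13A3. Of the other 14, 13 were matched in the table and 5 were tested. The 8 that were matched and not tested, GMNC, OSTN, UTS2B, PYDC2, FGF12, CPN2, LRRC15 and GP5, had at most 28 counts in any library. PLAAT1, a phospholipid-modifying enzyme whose gene is next to ATP13A5 on the other side, was lower in ALDH1+ cells with a log2 fold change of -0.65 (SE 0.14, edgeR, adjusted p = 0.0024). It stood there at 4.81, 4.55 and 3.81 CPM with EPZ5676, against 6.11, 6.33 and 8.09 CPM with DMSO. ALDH1- cells had 4.04, 3.51 and 4.16 CPM with EPZ5676, against 5.9, 5.37 and 5.18 CPM with DMSO. There the log2 fold change was -0.49 (SE 0.15, edgeR, adjusted p = 0.026), a call lost without replicate 1 or 2 of either treatment (adjusted p = 0.059 to 0.12).

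OPA1, the mitochondrial fusion GTPase on the far side of ATP13A4, gave -0.17 in ALDH1+ cells (SE 0.08, edgeR, adjusted p = 0.13) and -0.10 in ALDH1- cells (adjusted p = 0.42). Without EPZ5676 ALDH1+ replicate 3 it was called lower in ALDH1+ cells (-0.26, adjusted p = 0.021). HES1, a transcriptional repressor downstream of Notch, fell in ALDH1+ cells with -0.61 (SE 0.11, edgeR, adjusted p = 5.8e-04) and gave -0.15 in ALDH1- cells (adjusted p = 0.37). MB21D2 rose in both populations, with 0.44 (SE 0.11, edgeR, adjusted p = 0.0056) in ALDH1+ cells and 0.51 (SE 0.11, adjusted p = 0.0032) in ALDH1- cells. CCDC50 rose in ALDH1+ cells with 0.32 (SE 0.07, edgeR, adjusted p = 0.0048) and gave 0.21 in ALDH1- cells (adjusted p = 0.055, or 0.01 with the replicate block). Of the 5 tested neighbours, 2 were called higher and 2 lower in ALDH1+ cells, and 1 each in ALDH1- cells. That is 80% and 40%, beside 31.5% and 22.6% of all genes, and 5 genes are too few to read a share from.

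**Figure D3:**
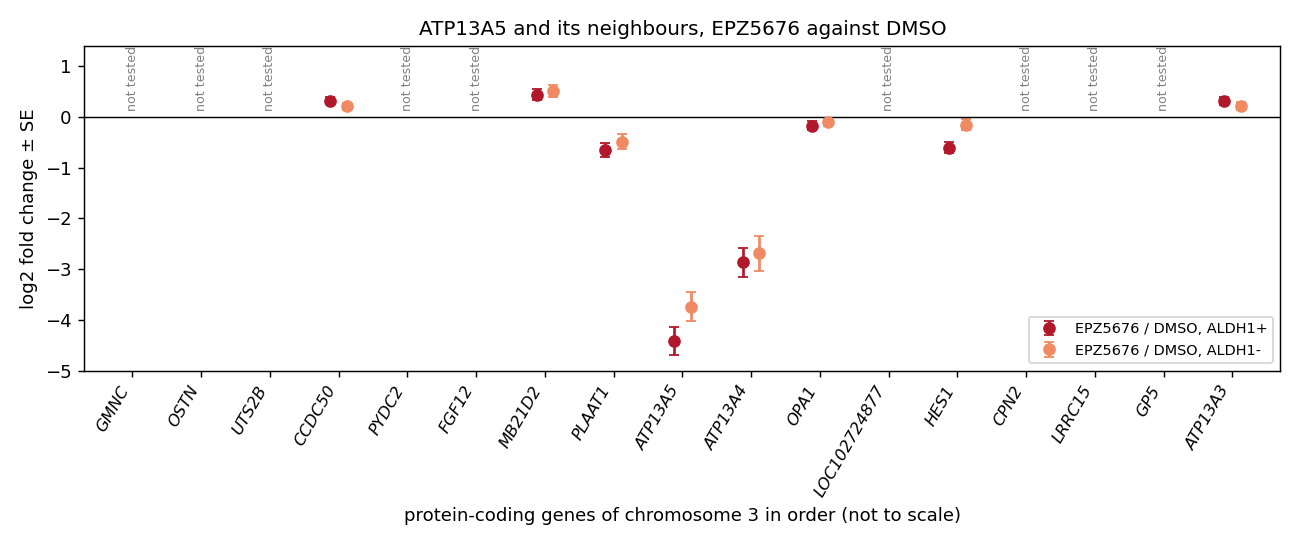
Log2 fold change (EPZ5676 against DMSO, ± SE) of ATP13A5 and the protein-coding genes on either side of it on chromosome 3, in order and not to scale. ATP13A5 and ATP13A4 stand side by side below -2.6, PLAAT1 reaches -0.65, and the genes farther out lie on both sides of 0.

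The polyamine list held genes for making, breaking down, carrying or regulating polyamines, the cargo of ATP13A2 and ATP13A3, and also EIF5A and EIF5A2. More of its genes were called higher than lower, as was the case over all genes. Of 28 listed genes 26 were tested, all but ARG1 and SLC22A16. In ALDH1+ cells 9 were called higher and 2 lower, which is 42.3% beside 31.5% of all genes (17.8% higher and 13.7% lower); the median log2 fold change was 0.06 against -0.01 over all genes. In ALDH1- cells 5 were called higher and 1 lower, which is 23.1% beside 22.6% of all genes (13.6% higher and 9.04% lower), with a median of 0.05 against -0.02. SMS, spermine synthase, rose in both populations, to 430 ± 38 CPM with EPZ5676 against 341 ± 28 CPM with DMSO in ALDH1+ cells. Its log2 fold change there was 0.34 (SE 0.08, edgeR, adjusted p = 0.0035), and in ALDH1- cells it was 0.43 (SE 0.08, adjusted p = 7.7e-04).

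EIF5A2, a translation factor that carries the spermidine-derived residue hypusine, rose by 0.88 (SE 0.13, edgeR, adjusted p = 1.3e-04) in ALDH1+ cells and 0.80 (SE 0.13, adjusted p = 4.2e-04) in ALDH1- cells. EIF5A, its more abundant paralogue, and OAZ1, the antizyme that restrains ornithine decarboxylase, were the 2 called lower, and are named after their values were seen. EIF5A averaged 523 CPM with EPZ5676 and 622 CPM with DMSO in ALDH1+ cells (-0.25, edgeR, adjusted p = 0.014) and gave -0.15 in ALDH1- cells (adjusted p = 0.15). OAZ1 fell by 0.34 in ALDH1+ cells (edgeR, adjusted p = 0.0057) and by 0.25 in ALDH1- cells (adjusted p = 0.036). CAV1, caveolin, rose by 0.53 (edgeR, adjusted p = 0.0068) and 0.56 (adjusted p = 0.0066). SLC7A1, an importer of arginine, rose by 0.52 in ALDH1+ cells (SE 0.12, edgeR, adjusted p = 0.0042) and gave 0.08 in ALDH1- cells (adjusted p = 0.70). SMOX, spermine oxidase, rose by 0.56 in ALDH1+ cells (SE 0.14, edgeR, adjusted p = 0.0059). In ALDH1- cells it gave 0.26 (adjusted p = 0.19), and 0.28 with the replicate block (adjusted p = 0.022); without DMSO ALDH1- replicate 1 it gave 0.47 (adjusted p = 0.0094). AZIN2, an inhibitor of antizyme, rose by 0.70 in ALDH1+ cells (SE 0.18, edgeR, adjusted p = 0.0082), a call lost without the 4 libraries numbered 3 (0.62, adjusted p = 0.068); in ALDH1- cells it gave 0.38 (adjusted p = 0.18).

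Of the preset enzymes of polyamine synthesis and turnover, ODC1, SRM, AMD1 and SAT1 gave no call in either population in the main fit. MTAP, also on the list, was called higher in ALDH1+ cells (0.17, edgeR, adjusted p = 0.043) and in ALDH1- cells (0.19, adjusted p = 0.04). ODC1, ornithine decarboxylase, stood at 204 ± 18 CPM with EPZ5676 and 195 ± 13 CPM with DMSO in ALDH1+ cells, with a log2 fold change of 0.07 (edgeR, adjusted p = 0.57). In ALDH1- cells it gave 0.18 (edgeR, adjusted p = 0.14, or 0.02 with the replicate block). SRM, spermidine synthase, gave -0.11 and -0.04, and AMD1, which makes the aminopropyl donor, gave -0.01 in both populations. SAT1, the acetyltransferase that marks polyamines for export, gave -0.26 in ALDH1+ cells (edgeR, adjusted p = 0.093, or 0.0049 with the replicate block) and 0.11 in ALDH1- cells (adjusted p = 0.55).

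Other P-type ATPases moved in both directions. Of 37 listed genes 26 were tested; the proton pump ATP12A, for example, had at most 3 counts in any library. In ALDH1+ cells 7 were called higher and 4 lower, 42.3% beside 31.5% of all genes, and in ALDH1- cells 5 and 4, 34.6% beside 22.6%. Their medians were 0.06 and 0. ATP8B2, ATP10D and ATP10A, all of the P4 branch of lipid flippases, rose in ALDH1+ cells by 1.33 (SE 0.22), 1.09 (SE 0.15) and 0.99 (SE 0.18), with edgeR adjusted p-values of 3.9e-04, 8.6e-05 and 8.5e-04. In ALDH1- cells they rose by 0.96 (SE 0.24), 0.81 (SE 0.16) and 0.71 (SE 0.18), with edgeR adjusted p-values of 0.0088, 0.0016 and 0.011. The ATP8B2 call in ALDH1- cells was lost without the libraries numbered 3 (adjusted p = 0.073). The ATP10A call there was lost without DMSO ALDH1- replicate 3, EPZ5676 ALDH1- replicate 1 or EPZ5676 ALDH1- replicate 2 (adjusted p = 0.051 to 0.052).

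ATP7A, a copper exporter, fell by 0.84 in ALDH1+ cells (edgeR, adjusted p = 0.0024) and by 0.71 in ALDH1- cells (adjusted p = 0.012). The ATP7A call in ALDH1- cells was lost without DMSO ALDH1- replicate 3 (adjusted p = 0.07) or EPZ5676 ALDH1- replicate 2 (adjusted p = 0.054). ATP2C2, a calcium and manganese pump of the secretory pathway, rose by 0.62 in ALDH1+ cells (edgeR, adjusted p = 0.0037). In ALDH1- cells it gave 0.25 (adjusted p = 0.23, or 0.017 with the replicate block), and 0.44 without DMSO ALDH1- replicate 1 (adjusted p = 0.03). None of the called P-type ATPases had a log2 fold change as far below 0 as ATP13A4.

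Genes of membrane protein insertion at the endoplasmic reticulum, where ATP13A1 works, gave few calls. All 30 were tested; 0 were called higher and 3 lower in ALDH1+ cells, and 1 higher and 2 lower in ALDH1- cells. That is 10% in each, beside 31.5% and 22.6% of all genes, and the difference was not tested. Over the alternatives 1 to 6 were called lower in ALDH1+ cells, with 6 under the replicate block and 1 without the libraries numbered 3. The block also gave 2 called higher in ALDH1- cells, where no filter gave 0. UBL4A, of the tail-anchored protein pathway, fell by 0.28 (SE 0.06, edgeR, adjusted p = 0.004) in ALDH1+ cells. In ALDH1- cells it fell by 0.25 (SE 0.06, edgeR, adjusted p = 0.011), and the call was lost without DMSO ALDH1- replicate 2 (adjusted p = 0.057) or EPZ5676 ALDH1- replicate 1 (adjusted p = 0.051).

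Lysosomal genes, whose products work beside ATP13A2, moved in both directions. In ALDH1+ cells 4 of 32 were called higher and 5 lower, 28.1% beside 31.5% of all genes, with a median of -0.08 against -0.01 over all genes. In ALDH1- cells 5 were called in each direction, 31.2% beside 22.6% of all genes, with a median of -0.09 against -0.02. Over the alternatives 1 to 9 were called lower in ALDH1+ cells, with 9 under the replicate block, 2 with no filter and 1 without EPZ5676 ALDH1+ replicate 1 or 2. TFEB, a transcription factor that drives lysosome formation, rose by 1.10 in both populations (SE 0.13 each; edgeR, adjusted p = 1.4e-05 in ALDH1+ and 2.5e-05 in ALDH1- cells). Among the cathepsins, the proteases of the lysosome, CTSL rose by 0.61 and 0.64 (edgeR, adjusted p = 7.3e-05 and 8.6e-05), whereas CTSB fell by 0.40 and 0.44 (edgeR, adjusted p = 9.3e-04 and 6.3e-04).

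**Figure D4:**
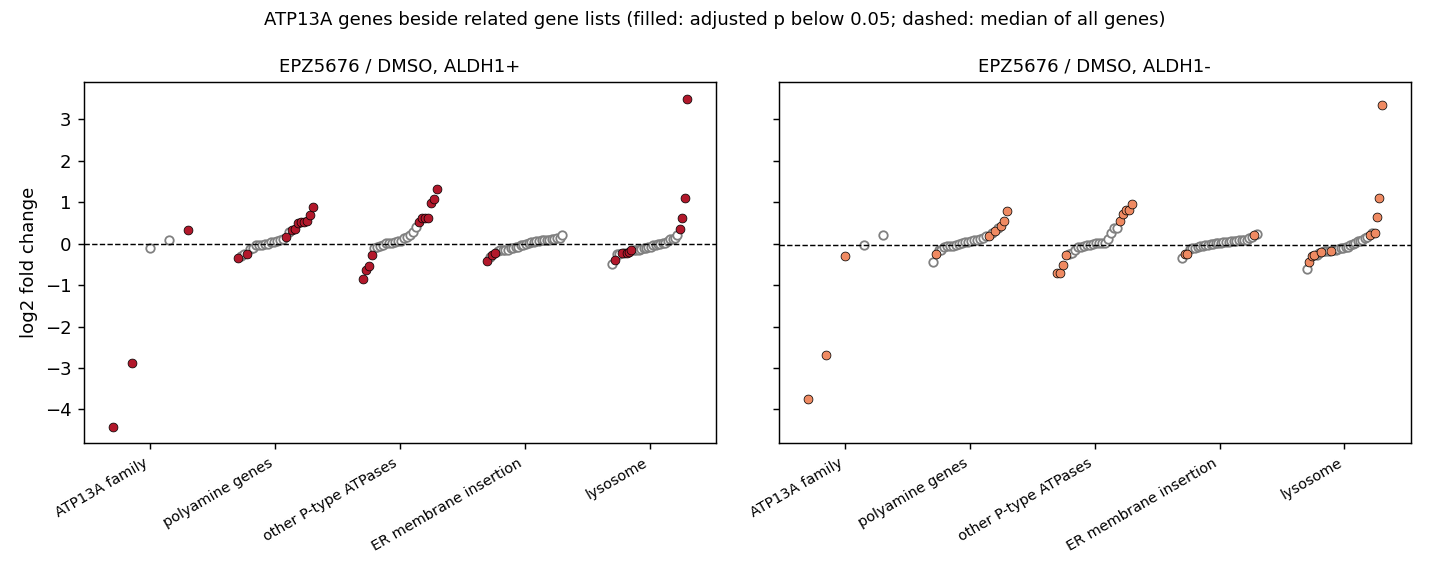
Log2 fold change of every tested gene (EPZ5676 against DMSO), sorted within the ATP13A family and 4 related gene lists, with ALDH1+ cells in the left panel and ALDH1- cells in the right; filled points have an adjusted p below 0.05 and the dashed line is the median of all genes. ATP13A5 and ATP13A4 lie below every gene of the 4 lists in both panels. ATP13A5 was chosen for its fall, so its filled points are a description and not a test.

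The genes whose levels ran most like ATP13A5 over all 12 libraries were ELAPOR1, ISYNA1, PRODH, KDM1A and CMAHP, by Pearson's r of log2 CPM among the 13253 genes whose mean log2 CPM was 0 or more. Their r was 0.995, 0.991, 0.99, 0.99 and 0.99. The libraries fall into 2 clusters by treatment, so these r describe mainly that difference. ELAPOR1, an endosome and lysosome membrane protein, averaged 4.69 ± 0.89 CPM with EPZ5676 and 24.5 ± 6.2 CPM with DMSO in ALDH1+ cells. PRODH, proline dehydrogenase, averaged 25.1 ± 3.2 CPM with EPZ5676 and 81.8 ± 13 CPM with DMSO there. KDM1A, a histone demethylase, averaged 189 ± 9.4 CPM with EPZ5676 and 241 ± 2 CPM with DMSO there. By Spearman's rho, 1 of the 5, ELAPOR1, was again among the first 5.

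ATP13A4, whose level is below that limit, had an r of 0.976 with ATP13A5, and 38 of the genes over the limit had a higher one. Among the other members r with ATP13A5 was 0.617 for ATP13A1, -0.261 for ATP13A2 and -0.83 for ATP13A3. PLAAT1 had 0.846. Within a treatment the pair ran together less closely: r between ATP13A4 and ATP13A5 was 0.434 (rho 0.486) over the 6 EPZ5676 libraries and 0.597 (rho 0.6) over the 6 DMSO libraries. These are descriptions over libraries that share treatments and may share cultures, at 6 to 18 ATP13A4 counts per EPZ5676 library.

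Library totals lay between 24348594 and 80195050 counts. The treatments separated on the first principal component (69.2% of the variation). On it the EPZ5676 libraries numbered 3 lay at 15.8 and 16.7, and the other EPZ5676 libraries at 27.4 to 29.9. The DMSO libraries numbered 3 lay at -34.1 (ALDH1+) and -26 (ALDH1-), and the other DMSO libraries at -24.7 to -16.8. Libraries numbered 3 thus lay lower than the others of their treatment in both treatments. Without the 4 libraries numbered 3, the directions and calls of ATP13A4 were the same, and so was the direction of ATP13A5. DOT1L itself gave a log2 fold change of -0.11 in ALDH1+ cells (edgeR, adjusted p = 0.41) and -0.25 in ALDH1- cells (adjusted p = 0.079, or 0.014 with the replicate block); EPZ5676 acts on the enzyme, so its RNA is no check of the drug. Of the sort markers, ALDH1A1 averaged 11.8 CPM in EPZ5676 ALDH1+ and 12 CPM in EPZ5676 ALDH1- cells, and 33.1 CPM in DMSO ALDH1+ and 25.3 CPM in DMSO ALDH1- cells. ALDH1A3, the far more abundant sort marker, averaged 1950 CPM in EPZ5676 ALDH1+ and 1450 CPM in EPZ5676 ALDH1- cells. Under DMSO it averaged 1640 CPM in ALDH1+ and 1370 CPM in ALDH1- cells. Its ALDH1+ and ALDH1- libraries did not overlap under either treatment, as for 9.57% of all genes under EPZ5676 and 23.1% under DMSO. Neither sort marker was called between the populations under either treatment in the main edgeR fit.

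The 8 epithelial markers summed to 16200 to 20700 CPM per library. EGFR was the largest single part (9240 CPM in EPZ5676 ALDH1+ and 5950 CPM in DMSO ALDH1+ cells). KRT8, KRT5, KRT19 and KRT18 followed, at 2820, 2550, 2220 and 1500 CPM in EPZ5676 ALDH1+ cells. In DMSO ALDH1+ cells these keratins stood at 3360, 2440, 2740 and 1690 CPM. The 8 markers moved in both directions: 2 were called higher and 4 lower with EPZ5676 in ALDH1+ cells (median -0.21), and 1 each in ALDH1- cells. EPCAM averaged 578 CPM in EPZ5676 ALDH1+ and 703 CPM in DMSO ALDH1+ cells. CDH1 averaged 74.6 and 109 CPM in the same groups. KRT17 went the other way, at 368 and 161 CPM in these groups. Its means in ALDH1- cells were 267 CPM with EPZ5676 and 120 CPM with DMSO. The 4 leukocyte markers summed to 9.24 to 12.3 CPM in EPZ5676 ALDH1+, 7.05 to 8.51 in DMSO ALDH1+, 11.3 to 16.7 in EPZ5676 ALDH1- and 8.75 to 11.3 in DMSO ALDH1- cells, with CD3E at no more than 1 count in any library. The 3 fibroblast markers summed to 21.3 to 25 CPM in EPZ5676 ALDH1+, 8.89 to 14.2 in DMSO ALDH1+, 18.5 to 20.6 in EPZ5676 ALDH1- and 10.6 to 13.5 in DMSO ALDH1- cells. Nearly all of that sum was COL1A1, since COL1A2 was at most 0.438 CPM and PDGFRB at most 0.408 CPM. The endothelial markers in the table, CDH5 and VWF, summed to at most 0.938 CPM. The leukocyte sum was mostly CSF1R (8.79 CPM in EPZ5676 ALDH1+ and 5.23 CPM in DMSO ALDH1+ cells). CD14 was lower with EPZ5676 (1.17 and 2.6 CPM in the same groups), whereas PTPRC was higher (0.458 and 0.164 CPM). PTPRC averaged 0.713 CPM with EPZ5676 and 0.169 CPM with DMSO in ALDH1- cells. The part of these markers in the results for ATP13A5 and ATP13A4 was not tested.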

How the data were processed

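RNA was sequenced from 12 libraries of MDA-MB-468 cells (2 treatments, 2 sorted populations, 3 replicates each). Raw read counts for each gene, as whole numbers without normalization, were deposited by the authors in 1 table. Per the labels' protocols, total RNA was extracted with TRIzol and libraries were made with a strand-keeping kit. Per the submitters' processing notes, Trim Galore, STAR and build hg19 were used. Which counter, strand setting and annotation were used is not given in the sources used here.

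Identifiers were matched to symbols without their version (51959 of 57783 matched). Counts were tested with edgeR 4.0.16 in R 4.3.3: filterByExpr, TMM scaling (factors 0.975 to 1.02), 1 quasi-likelihood fit of all 12 libraries with a term per group, and Benjamini-Hochberg adjustment over all 16327 genes. Adjusted p-values below 0.05 counted as calls. Each SE was derived from the F statistic. Levels in CPM are mean ± SD (n = 3). The pipeline was tested on simulated data. Replicates of a group differed beyond counting error (chi-square per degree of freedom 3.74 to 30.4). Counting floors cover counting error only.

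The 4 groups share replicate numbers. Over 12354 genes, deviations from group means of same-numbered libraries correlated at 0.166 to 0.648 in all 18 pairs of groups and numbers. For different numbers the range was -0.663 to 0.217, so the numbers were taken to pair the libraries. The main fit has no term for the number, so its p-values leave this pairing out. The fit with the replicate block uses the pairing, and some calls differ there.

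The members, the gene lists and the tests were chosen with earlier results of these data known. Named genes were the members, their antisense genes, the neighbours, up to 5 called genes per list with the largest change, a few preset enzymes, and the 5 genes most like ATP13A5; a few of these are not reported here. Alternatives were other scalings and filters, DESeq2 1.42.0, limma-voom 3.58.1, fits of only the groups compared, a replicate block and left-out libraries. Coding lengths and overlaps come from GENCODE 29, and upstream sequences and gene order from RefSeq; no hg19 coordinates are given.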

Additional observations from a re-analysis of the deposited data

How the results depend on the processing

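Over 21 alternatives the falls of ATP13A5 and ATP13A4 kept their direction, and those of ATP13A4 their call. ATP13A5 ranged from -4.63 to -4.14 (log2) in ALDH1+ cells and from -4.05 to -3.45 in ALDH1- cells; ATP13A4 ranged from -3.05 to -2.53 and from -2.84 to -2.32, with adjusted p-values up to 8.9e-05 and 6.2e-04. The rise of ATP13A3 in ALDH1+ cells ranged from 0.21 to 0.39 (adjusted p 0.0011 to 0.046). In ALDH1- cells ATP13A3 was called with the replicate block (0.21, adjusted p = 0.041), with only the groups compared (0.24, adjusted p = 0.02), without the libraries numbered 3 (0.28, adjusted p = 0.017) and without DMSO ALDH1+ replicate 3 (0.22, adjusted p = 0.018), with 0.17 to 0.25 over single libraries left out. The fall of ATP13A1 in ALDH1- cells lost its call with total counts (-0.27, adjusted p = 0.055) and without the libraries numbered 3 (-0.28, adjusted p = 0.066), and lay between -0.31 and -0.25 without single libraries. The replicate block changed no other member's call, but raised the genes called lower with EPZ5676 in ALDH1- cells to 2423 against 1476, and the genes called for ALDH1+ against ALDH1- under DMSO to 564 higher and 820 lower, and under EPZ5676 to 31 and 44; with no filter these were 538 and 410, and 139 and 96, and the interaction had 25 and 12.

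Some small uncalled values changed sign. For ALDH1+ against ALDH1- under EPZ5676, ATP13A2 gave -0.01 with total counts and without the libraries numbered 3 and -0.04 to 0.04 over single libraries left out, ATP13A3 gave 0.01 with no filter and -0.03 to 0.02, and ATP13A1 gave -0.07 to 0.02. Without the libraries numbered 3, ATP13A3 gave 0.03 between populations under DMSO and -0.07 for the interaction. Over single libraries left out, ATP13A1 in ALDH1+ cells gave -0.2 to 0.02, ATP13A2 in ALDH1- cells -0.05 to 0.02, and the interaction of ATP13A4 -0.5 to 0.15. AMD1 gave 0.02 and 0.01 with total counts, 0.03 and 0.04 without the libraries numbered 3, 0.02 in ALDH1- cells with only the groups compared, and -0.08 to 0.04 in each population over single libraries; SAT1 in ALDH1- cells reached -0.02. By Spearman's rho, 1 of the 5 genes most like ATP13A5 remained. The causes were not tested. ATP13A4 under EPZ5676 failed the filter in the fit of only those groups, which gave no value. Over all alternatives, 121 of 629 list and total counts moved by more than 1.5 times. Depth limits ATP13A4 and ATP13A5 most, at 6 to 38 counts per EPZ5676 library.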
